A study of Homo sapiens with 18 samples.

Results

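The genes described here are 28 members of cholesterol synthesis and its control by SREBP2, chosen by name from the 60656 gene rows of the count table. All 28 symbols were found. They comprise 8 enzymes of the mevalonate steps, 3 of the squalene steps, 8 of the sterol steps, 4 genes of the SREBP control loop, and 5 genes of sterol uptake, transfer and export. The list is a selection and not the whole pathway.

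RNA was measured by 3′-end mRNA sequencing (Lexogen QuantSeq), in which each transcript is read mainly near its 3′ end. The cells were CAMA-1 and ZR-75-1, established oestrogen receptor-positive breast cancer lines, both with a wild-type genotype in the labels and grown in RPMI-1640 with fetal bovine serum. Each line received abemaciclib at 500 nM, palbociclib at 500 nM or an equal volume of the solvent DMSO, and all 6 groups were collected after 5 days with 3 libraries each. Both drugs inhibit CDK4 and CDK6, the kinases that phosphorylate the retinoblastoma protein. Each line is 1 culture model, and serum carries cholesterol in lipoproteins, the amount of which was not measured.

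Cells build cholesterol from acetyl-CoA. The mevalonate steps yield farnesyl diphosphate, the squalene steps join and close this chain into lanosterol, and the sterol steps trim lanosterol to cholesterol. SREBP2, encoded by SREBF2, is a transcription factor held in the endoplasmic reticulum with its escort SCAP. When sterols are low SCAP carries it to the Golgi for cleavage, and the freed part activates genes for synthesis and uptake, whereas INSIG1 and INSIG2 hold SCAP back when sterols are plentiful. Sterols in excess are exported by ABC transporters, which are switched on through liver X receptors. Dividing cells need cholesterol for their membranes, and the pathway also supplies isoprenoids for protein prenylation.

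Library totals ran from 2308442 to 4146549 counts, so that 1 count stood for 0.241 to 0.433 counts per 1e6 counts, or CPM. The 28 genes together took 0.106% to 0.157% of the counts of a library. Levels below are normalised counts in CPM, scaled by TMM within each line, with SD over n = 3 libraries. The summed markers and the comparison of the lines with DMSO are instead scaled over all 18 libraries. The change with a drug is a log2 fold change from edgeR, and a gene was called higher or lower at a Benjamini-Hochberg adjusted p under 0.05 over all genes tested. All 10 luminal markers examined were detected in both lines, whereas the immune markers summed to at most 2.298 CPM and the endothelial ones to at most 1.34 CPM in any library. Of 6 basal or mesenchymal markers, KRT5, KRT14 and TP63 had 3 counts or fewer in every library, and the sum of the 6 was at most 7.18 CPM in CAMA-1. In ZR-75-1 that sum was 34.2 to 37.1 CPM with DMSO, 16.6 to 19.2 CPM with abemaciclib and 15.99 to 20.3 CPM with palbociclib, and it was mostly CDH2, an adhesion protein. Of 6 fibroblast markers 4 had 0 counts in all libraries of a line, and their sum lay between 14.4 and 24.1 CPM in CAMA-1 and between 19.98 and 33.9 CPM in ZR-75-1, mostly COL1A1. COL3A1 held 0.665, 1.75 and 1.42 CPM with DMSO in CAMA-1, 6.41, 8.82 and 3.81 CPM with abemaciclib and 4.40, 6.08 and 6.93 CPM with palbociclib. The summed luminal markers ranged from 5744 to 6016 CPM in the CAMA-1 DMSO libraries and from 7907 to 8396 CPM with a drug. In ZR-75-1 they ranged from 8407 to 8828 CPM with DMSO, from 9959 to 10165 CPM with abemaciclib and from 8302 to 8520.4 CPM with palbociclib. The part of these markers in the results below was not tested. The proliferation genes MKI67, RRM2 and CCNA2 fell in all 4 comparisons with DMSO, MKI67 with log2 fold changes of -3.27, -2.40, -5.88 and -1.36, taking CAMA-1 first and abemaciclib before palbociclib. TK1 and E2F1, the other genes of this check, also had lower means with a drug in each comparison. With palbociclib in ZR-75-1 their libraries overlapped DMSO. There TK1 stood at 35.7 ± 8.30 CPM against 45.5 ± 8.38 CPM, and E2F1 at 46.0 ± 4.75 CPM against 52.4 ± 3.63 CPM.

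In CAMA-1, CDK4/6 inhibition raised many of the genes, more of them with palbociclib. Abemaciclib raised 9 of the 25 members tested (36.0%) and lowered 6 (24.0%), against 20.3% and 20.1% of all genes tested. Palbociclib raised 13 (52.0%) and lowered 4 (16.0%), against 18.4% and 18.7% of all genes. The palbociclib calls of IDI1, LSS, HSD17B7 and ABCA1 were lost under DESeq2 and in fits that left out 1 library. So were the abemaciclib calls of PMVK, FDFT1, INSIG2 and ABCG1, whereas those of FDPS and TM7SF2 were lost in 1 such fit each. The median log2 fold change of the members tested was 0.10 with abemaciclib and 0.41 with palbociclib, whereas the medians of all genes were 0.01 and 0.00. The 2 comparisons share their DMSO libraries. Mitochondrially encoded genes took 15.7% ± 0.87 of the counts of the CAMA-1 DMSO libraries, 24.8% ± 1.37 with abemaciclib and 23.6% ± 1.15 with palbociclib. With these genes left out, the counts of members called were the same, 15 and 17. In libraries made from many cells, fewer cells expressing a gene and less of its RNA per cell cannot be told apart.

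In ZR-75-1, fewer of the genes were called, with ACAT2, EBP, HMGCS1, FDFT1 and SREBF2 lower and TM7SF2, DHCR7 and SCAP higher with both drugs. Abemaciclib raised 4 of the 25 members tested (16.0%) and lowered 7 (28%), against 17.9% and 18.3% of all genes tested. Palbociclib raised 3 (12.0%) and lowered 6 (24.0%), against 14.5% and 13.4%. The medians over the members were 0.04 and -0.03, close to the all-gene medians of 0.00 and -0.01, and the shares called higher were near those of all genes. Of the 7 lower calls with abemaciclib, those of HMGCS1 and SREBF2 were lost under DESeq2 and in fits that left out 1 library. Here the mitochondrial share was 20.2% ± 2.68 in the DMSO libraries, 19.5% ± 1.01 (abemaciclib) and 18.98% ± 0.70 (palbociclib).

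Some genes were called in each of the 4 comparisons with DMSO, which share DMSO libraries within a line. The share of all genes called in all 4 is not given here, so this recurrence is not read as particular to the members. ACAT2 and EBP were lower in all 4, TM7SF2 and SCAP were higher in all 4, and HMGCS1 was higher in CAMA-1 and lower in ZR-75-1. GGPS1 and NSDHL were tested in all 4 and not called. STARD4 was tested in ZR-75-1 only and not called there, and CYP51A1 and NPC1L1 had too few counts to be tested in either line.

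**Figure D1:**
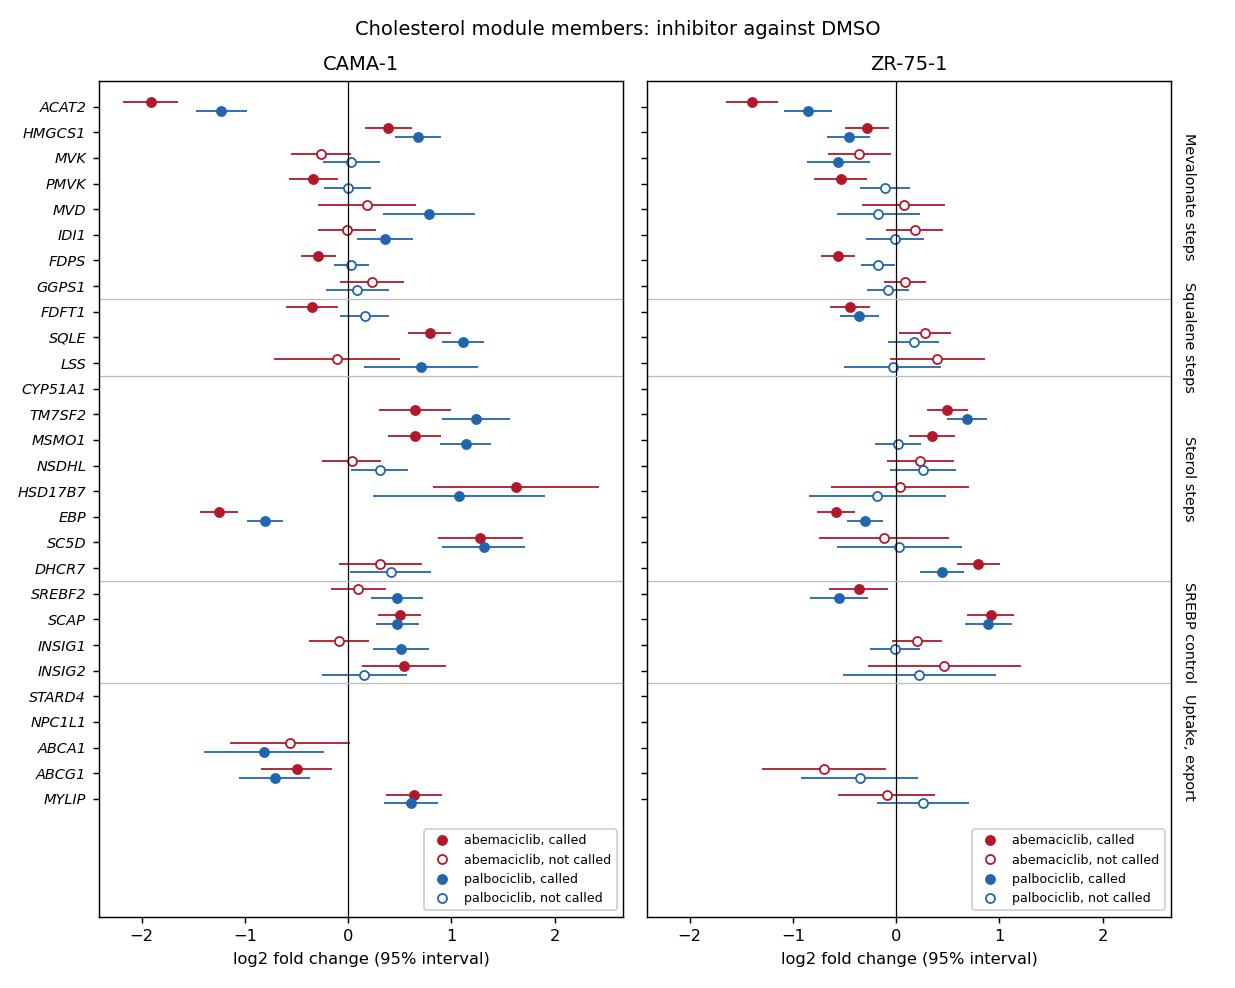
Log2 fold change against DMSO of each member, with its 95% interval, in CAMA-1 (left) and ZR-75-1 (right), for abemaciclib in red and palbociclib in blue, with filled points for called changes. ACAT2 and EBP lie left of 0 and TM7SF2 and SCAP right of 0 in both panels, and HMGCS1 lies on opposite sides. CYP51A1, NPC1L1, STARD4 and, in ZR-75-1, ABCA1 are not drawn.

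The DNA just upstream of a few of these genes holds letters that match the core of an element through which the pathway is known to be controlled. SREBP2 binds sterol regulatory elements, and NF-Y, a partner factor, binds the CCAAT box. The upstream window, from 250 bases before to 50 bases after the RefSeq start, was available for 24 of the 28 members in build GRCh38.p14 and was searched on both strands. The element core TCACNCCAC was found in 1 of them, SREBF2, and in 1.388% of the windows of 27305 genes. With the seventh letter freed, the core TCACNCNAC was found in 3, FDPS, HSD17B7 and SREBF2, and in 3.131% of all windows, and each strict match is also a relaxed one. CCAAT was found in 19 of the 24 members (79.167%) and in 39.722% of all windows. A match is a description of the letters and not a binding site, and elements with other letters were not searched for. The stretch from 150 to 11 bases before the start is shown for 4 genes, all on the plus strand, with element cores and CCAAT boxes (CCAAT, or ATTGG on the other strand) in capitals. SREBF2 holds the strict core, HSD17B7 a relaxed one, MSMO1 is the sterol step whose drug contrast differed between the lines, and EBP is a sterol step that fell in both lines.
SREBF2, chr22:41832955-41833094: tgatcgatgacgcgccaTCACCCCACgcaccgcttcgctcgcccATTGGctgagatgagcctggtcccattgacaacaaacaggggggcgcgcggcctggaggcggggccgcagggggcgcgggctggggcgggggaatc
HSD17B7, chr1:162790552-162790691: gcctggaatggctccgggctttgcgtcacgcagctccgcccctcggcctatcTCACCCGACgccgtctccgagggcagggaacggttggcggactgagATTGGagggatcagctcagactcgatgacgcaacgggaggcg
MSMO1, chr4:165327519-165327658: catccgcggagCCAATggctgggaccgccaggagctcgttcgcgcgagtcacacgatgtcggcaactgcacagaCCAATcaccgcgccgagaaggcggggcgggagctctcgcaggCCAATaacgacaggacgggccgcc
EBP, chrX:48521658-48521797: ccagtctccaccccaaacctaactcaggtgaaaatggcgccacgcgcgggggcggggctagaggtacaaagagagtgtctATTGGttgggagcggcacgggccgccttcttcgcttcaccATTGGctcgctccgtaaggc
SREBF2 carried 1 core and 1 CCAAT box in this stretch, and HSD17B7 also carried 1 of each. MSMO1 carried 3 CCAAT boxes and EBP 2, both without a core. These 2 genes changed in opposite directions in CAMA-1, as described further on.

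Among the mevalonate steps the lines differed in direction for HMGCS1, and ACAT2 fell in both. Of the 8 enzymes, abemaciclib raised 1 and lowered 3 in CAMA-1, and palbociclib raised 3 and lowered 1. In ZR-75-1 no enzyme of this group rose, 4 fell with abemaciclib and 3 with palbociclib. The background over all genes in CAMA-1 was 20.3% higher and 20.1% lower (abemaciclib) or 18.4% higher and 18.7% lower (palbociclib). For ZR-75-1 it was 17.9% higher and 18.3% lower (abemaciclib) or 14.5% higher and 13.4% lower (palbociclib).

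ACAT2 (ENSG00000120437.9, chr6:159762045-159779112), the cytosolic thiolase that joins acetyl-CoA units at the entry to the pathway, fell most. It stood at 104, 84.0 and 96.2 CPM in the CAMA-1 DMSO libraries, 27.0, 23.8 and 24.1 CPM with abemaciclib and 38.6, 46.6 and 35.7 CPM with palbociclib. In ZR-75-1 it stood at 82.5, 105 and 104 CPM with DMSO, 41.4, 33.8 and 35.1 CPM with abemaciclib and 49.9, 59.5 and 52.6 CPM with palbociclib. Every library of a drug lay below every DMSO library of its line. The fall in CAMA-1 was 3.77-fold with abemaciclib (log2 fold change -1.91, SE 0.13, adjusted p = 9.85e-16) and 2.34-fold with palbociclib (-1.23, SE 0.12, adjusted p = 3.9e-11). In ZR-75-1 it was 2.63-fold (-1.40, adjusted p = 6.48e-14) and 1.80-fold (-0.85, adjusted p = 4.79e-08). ACAT2 overlaps TCP1 on the opposite strand over 454 bases, 17.2% of its exonic bases. The share of reads concerned was not measured and need not equal that of bases, since reads lie mainly near the 3′ end. It would be larger than 17.2% if the shared stretch lies at that end of ACAT2. Over all libraries TCP1 had 9413 counts and ACAT2 3385. Whether the counting used strand is not given in the sources used here, so that reads of that stretch may be uncertain. The size of the ACAT2 falls, and their rank among the members, carry the same uncertainty. TCP1, a chaperonin subunit, had smaller log2 fold changes of -0.81, -0.77, -0.25 and -0.02 in the same 4 comparisons.

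HMGCS1 (ENSG00000112972.15, chr5:43287470-43313512) makes HMG-CoA, the precursor of mevalonate, and is a classical SREBP2 target. It stood at 48.8, 51.5 and 48.7 CPM with DMSO, 66.2, 60.8 and 67.0 CPM with abemaciclib and 79.2, 80.8 and 78.0 CPM with palbociclib in CAMA-1. The corresponding libraries of ZR-75-1 held 93.1, 103 and 92.1, then 81.5, 73.1 and 82.5, then 64.2, 76.0 and 69.9 CPM. The drug libraries lay above the DMSO libraries in CAMA-1 and below them in ZR-75-1, with no overlap in either line. HMGCS1 rose in CAMA-1 with abemaciclib (0.39, SE 0.11, adjusted p = 0.00491) and palbociclib (0.68, adjusted p = 2.25e-06). In ZR-75-1 it fell with abemaciclib (-0.28, SE 0.11, adjusted p = 0.0291) and palbociclib (-0.46, adjusted p = 0.000497). The abemaciclib call in ZR-75-1 was lost without DMSO replicate 2 or abemaciclib replicate 2 (-0.22, adjusted p = 0.159, without abemaciclib replicate 2), and without the filter on low counts and under DESeq2, whereas the palbociclib call was kept in all alternatives run. An antisense RNA annotated over 37.68% of its exonic bases had 0 counts in every library.

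MVK (ENSG00000110921.14, chr12:109573255-109598125), which phosphorylates mevalonate, was called once. Its ZR-75-1 libraries held 41.7, 49.1 and 41.7 CPM with DMSO, 32.7, 28.4 and 43.2 CPM with abemaciclib and 29.4, 29.8 and 30.9 CPM with palbociclib. The palbociclib libraries lay below all DMSO libraries (-0.56, SE 0.15, adjusted p = 0.00329), whereas the abemaciclib libraries overlapped them (-0.36, adjusted p = 0.0599). In CAMA-1 it held 44.2, 35.01 and 50.1 CPM with DMSO, 36.9, 37.0 and 34.9 CPM with abemaciclib and 46.9, 40.0 and 46.4 CPM with palbociclib, which overlapped.

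MVD (ENSG00000167508.12, chr16:88651935-88663161), the decarboxylase that yields isopentenyl diphosphate, rose with palbociclib in CAMA-1. It stood at 16.0, 18.6 and 11.6 CPM with DMSO, 18.7, 23.8 and 9.84 CPM with abemaciclib and 25.2, 27.2 and 25.6 CPM with palbociclib. The palbociclib libraries were close together and above the others (0.78, SE 0.22, adjusted p = 0.00382), and abemaciclib replicate 3 was the lowest of the line. The ZR-75-1 libraries held 22.8, 16.9 and 23.7 CPM with DMSO, 25.6, 22.7 and 17.7 CPM with abemaciclib and 18.9, 15.2 and 21.7 CPM with palbociclib, with no call.

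PMVK, FDPS, IDI1 and GGPS1 complete these steps. PMVK, the second kinase of the pathway, fell with abemaciclib in ZR-75-1 from 54.2 to 63.7 CPM with DMSO to 38.8 to 42.0 CPM (-0.54, adjusted p = 0.000632). In CAMA-1 its fall with abemaciclib (-0.34, adjusted p = 0.0198) was lost without DMSO replicate 2 or abemaciclib replicate 1 or 3 (-0.26, adjusted p = 0.123, without abemaciclib replicate 3), and under DESeq2. FDPS, which makes farnesyl diphosphate, ranged from 167 to 207 CPM with DMSO and from 150.2 to 155 CPM with abemaciclib in CAMA-1 (-0.29, adjusted p = 0.00494), a call lost without DMSO replicate 3 (-0.20, adjusted p = 0.0711). In ZR-75-1 it ranged from 198 to 216 CPM with DMSO and from 133 to 151 CPM with abemaciclib (-0.56, adjusted p = 1.58e-07). Palbociclib called FDPS in neither line, with log2 fold changes of 0.03 and -0.18. IDI1, the isomerase before FDPS, rose with palbociclib in CAMA-1 (0.36, adjusted p = 0.032), a call lost without DMSO replicate 1 or 3 or palbociclib replicate 1 (0.26, adjusted p = 0.205, without palbociclib replicate 1), and under DESeq2. GGPS1, which makes geranylgeranyl diphosphate, had log2 fold changes from -0.08 to 0.23 and was not called. A gene annotated on the same strand shares 37.3% of its exonic bases.

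At the squalene steps, SQLE rose in CAMA-1 with both drugs and FDFT1 fell in ZR-75-1 with both. FDFT1 (ENSG00000079459.13, chr8:11795573-11839395), squalene synthase, stood at 51.5, 60.2 and 55.6 CPM with DMSO, 44.3, 47.2 and 40.3 CPM with abemaciclib and 60.1, 60.8 and 66.2 CPM with palbociclib in CAMA-1. In ZR-75-1 it stood at 125, 124 and 120.3, at 99.0, 88.3 and 83.3 and at 99.3, 90.9 and 97.9 CPM in the same order. Both drugs lay below DMSO in ZR-75-1 (abemaciclib -0.45, SE 0.10, adjusted p = 0.00017, and palbociclib -0.36, SE 0.09, adjusted p = 0.00263). In CAMA-1 the fall with abemaciclib (-0.35, adjusted p = 0.0217) was lost without DMSO replicate 2 or abemaciclib replicate 3 (-0.29, adjusted p = 0.0996, without abemaciclib replicate 3), and without the filter on low counts and under DESeq2, and palbociclib gave 0.16 (adjusted p = 0.303).

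SQLE (ENSG00000104549.12, chr8:124998497-125022283), the squalene epoxidase and a rate-limiting step, rose in CAMA-1. Its libraries held 67.8, 62.3 and 76.5 CPM with DMSO, 122, 108 and 128 CPM with abemaciclib and 166, 138 and 144 CPM with palbociclib. The 3 groups did not overlap, and the rise was 1.73-fold with abemaciclib (0.79, SE 0.10, adjusted p = 2.66e-08) and 2.16-fold with palbociclib (1.11, SE 0.10, adjusted p = 2.35e-12). In ZR-75-1 the libraries held 47.8, 57.8 and 63.7 CPM with DMSO, 77.7, 56.5 and 71.3 CPM with abemaciclib and 67.5, 60.5 and 61.8 CPM with palbociclib. The ZR-75-1 groups overlapped, and neither change was called (0.28, adjusted p = 0.0721, and 0.17, adjusted p = 0.338).

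LSS (ENSG00000160285.15, chr21:46188141-46228824), which closes the squalene chain into lanosterol, had few counts. It held 8.97, 5.60 and 11.6 CPM with DMSO, 5.61, 10.1 and 9.84 CPM with abemaciclib and 11.7, 15.6 and 17.0 CPM with palbociclib in CAMA-1. Its rise with palbociclib (0.71, 95% interval 0.15 to 1.26, adjusted p = 0.0382) was lost without DMSO replicate 1 or 2 or palbociclib replicate 2 or 3 (0.49, adjusted p = 0.201, without DMSO replicate 2), and under DESeq2. In ZR-75-1 it held 9.95, 16.9 and 16.9, then 21.4, 20.6 and 15.4, then 15.4, 11.2 and 15.9 CPM, and no change was called.

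In CAMA-1 the largest rises of the 25 members tested were at the sterol steps, HSD17B7 and SC5D with abemaciclib and SC5D and TM7SF2 with palbociclib. Of the 7 enzymes tested, each drug raised 4 and lowered 1 in CAMA-1. In ZR-75-1 abemaciclib raised 3 and lowered 1, and palbociclib raised 2 and lowered 1. Between 14.5% and 20.3% of all genes were higher in any of these comparisons and between 13.4% and 20.1% lower. CYP51A1, the lanosterol demethylase, had 2 counts in 1 ZR-75-1 abemaciclib library and 0 in the other 17, and 68.19% of its exonic bases are shared with another gene annotated on the same strand, so that its level was not determined here.

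TM7SF2 (ENSG00000149809.16, chr11:65111845-65116384), a sterol C14 reductase, rose in all 4 comparisons. In CAMA-1 it stood at 16.3, 23.8 and 24.9 CPM with DMSO, 42.5, 26.0 and 32.4 CPM with abemaciclib and 52.5, 52.4 and 49.9 CPM with palbociclib. In ZR-75-1 it stood at 89.9, 87.0 and 78.2, at 108, 135 and 118 and at 144, 134 and 133 CPM. Every drug library lay above the DMSO libraries of its line. The rise in CAMA-1 was 1.57-fold with abemaciclib (0.65, SE 0.17, adjusted p = 0.0021) and 2.36-fold with palbociclib (1.24, SE 0.16, adjusted p = 3.25e-08). That with abemaciclib was lost without abemaciclib replicate 1 (0.43, adjusted p = 0.0715). In ZR-75-1 TM7SF2 rose by 0.50 on the log2 scale (adjusted p = 4.88e-05) and by 0.69 (adjusted p = 8.38e-08).

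MSMO1 (ENSG00000052802.13, chr4:165327667-165343164), the C4 methyl oxidase, responded by drug and line. In CAMA-1 it stood at 42.5, 42.4 and 49.6 CPM with DMSO, 68.4, 85.1 and 60.3 CPM with abemaciclib and 109, 84.0 and 105 CPM with palbociclib. It rose 1.56-fold with abemaciclib (0.64, SE 0.13, adjusted p = 7.37e-05) and 2.20-fold with palbociclib (1.14, SE 0.12, adjusted p = 3.25e-10). In ZR-75-1 it stood at 66.4, 71.9 and 87.7 CPM with DMSO, 85.4, 101 and 101 CPM with abemaciclib and 77.1, 83.6 and 68.4 CPM with palbociclib. There the rise with abemaciclib (0.35, adjusted p = 0.0104) came from overlapping groups and was lost without DMSO replicate 1 or abemaciclib replicate 2 or 3 (0.27, adjusted p = 0.0936, without DMSO replicate 1), and palbociclib gave 0.02 (adjusted p = 0.926).

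HSD17B7 (ENSG00000132196.15, chr1:162790702-162812823), the 3-ketosteroid reductase of this stage, was a low-count gene. Its CAMA-1 libraries held 5.32, 2.10 and 1.66 CPM with DMSO, 9.08, 7.49 and 10.5 CPM with abemaciclib and 7.82, 4.34 and 6.24 CPM with palbociclib. The abemaciclib libraries lay above DMSO (1.63, 95% interval 0.82 to 2.43, adjusted p = 0.000961). The palbociclib libraries overlapped DMSO (1.07, adjusted p = 0.037), and that call was lost without DMSO replicate 2 or 3 or palbociclib replicate 1 or 3 (0.72, adjusted p = 0.212, without DMSO replicate 3), and under DESeq2. The ZR-75-1 libraries held 8.35, 6.92 and 6.77 CPM with DMSO, 7.12, 7.45 and 8.10 CPM with abemaciclib and 7.96, 4.96 and 6.35 CPM with palbociclib, with no call.

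EBP (ENSG00000147155.11, chrX:48521799-48528716), the Δ8-Δ7 sterol isomerase, fell in all 4 comparisons. In CAMA-1 it stood at 179, 183 and 185 CPM with DMSO, 73.7, 85.1 and 72.4 CPM with abemaciclib and 109, 102 and 102 CPM with palbociclib. In ZR-75-1 it stood at 160.5, 158 and 165, at 101, 101 and 122 and at 123, 138.8 and 131 CPM. No drug library reached the DMSO libraries of its line. The fall in CAMA-1 was 2.38-fold with abemaciclib (-1.25, SE 0.09, adjusted p = 3.84e-15) and 1.75-fold with palbociclib (-0.81, SE 0.09, adjusted p = 3.37e-10). In ZR-75-1 it was 1.498-fold (-0.58, adjusted p = 5.69e-07) and 1.23-fold (-0.30, adjusted p = 0.00675). A same-strand gene that shares 36.4% of its exonic bases had 0 counts in every library.

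SC5D (ENSG00000109929.10, chr11:121292681-121313410), the lathosterol desaturase, rose in CAMA-1 and was not called in ZR-75-1. Its CAMA-1 libraries held 12.0, 8.75 and 10.2 CPM with DMSO, 24.6, 26.5 and 24.4 CPM with abemaciclib and 28.1, 21.7 and 27.0 CPM with palbociclib. The drug libraries lay above DMSO, with log2 fold changes of 1.28 (SE 0.20, adjusted p = 1.83e-06) and 1.31 (SE 0.20, adjusted p = 9.2e-07). The ZR-75-1 libraries held 9.63, 9.03 and 8.81 CPM with DMSO, 5.82, 6.77 and 13.1 CPM with abemaciclib and 8.78, 7.603 and 11.6 CPM with palbociclib, which overlapped (-0.12, 95% interval -0.75 to 0.51, and 0.03, -0.57 to 0.63).

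DHCR7, the last enzyme of one route to cholesterol, rose with both drugs in ZR-75-1. It ranged there from 63.3 to 75.1 CPM with DMSO, from 116 to 128 CPM with abemaciclib (0.80, adjusted p = 8.02e-09) and from 81.3 to 101 CPM with palbociclib (0.44, adjusted p = 0.00091). In CAMA-1 it was not called, with 0.31 (95% interval -0.09 to 0.71) and 0.41 (95% interval 0.02 to 0.80), and the lines did not differ past the threshold (adjusted p = 0.13 and 1). NSDHL, the decarboxylating dehydrogenase between MSMO1 and HSD17B7, had log2 fold changes from 0.03 to 0.31 and was not called.

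**Figure D2:**
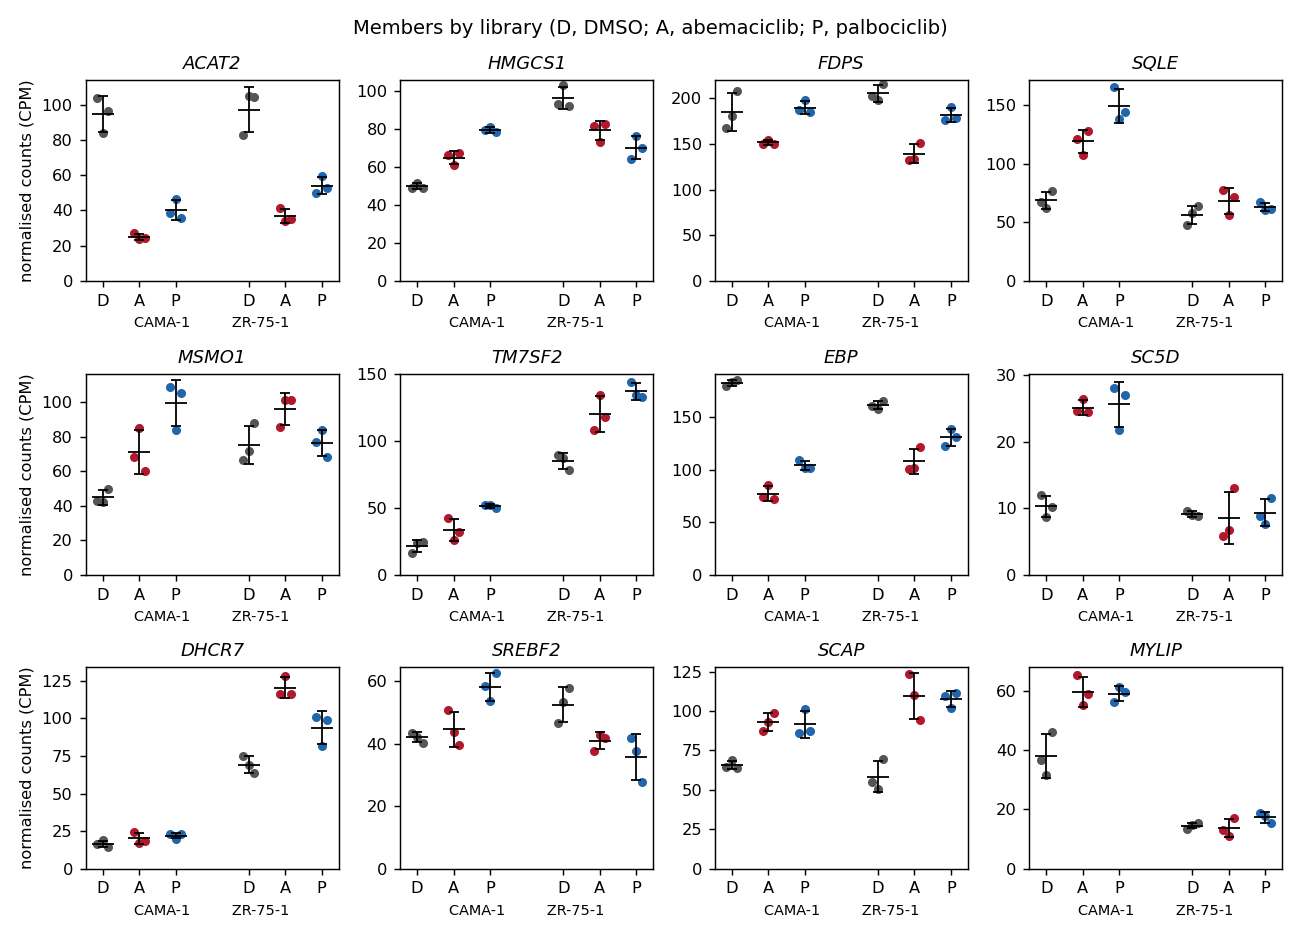
Normalised counts in CPM of 12 members in each library (points), with the mean and SD of the 3 libraries of a group (bars), for DMSO, abemaciclib and palbociclib in CAMA-1 and ZR-75-1. ACAT2 and EBP fall and SCAP and TM7SF2 rise in both lines, SC5D and MYLIP rise in CAMA-1, and DHCR7 has its higher values in ZR-75-1.

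Among the genes of SREBP control, the escort rose in all 4 comparisons, whereas the factor itself rose with palbociclib in CAMA-1 and fell with both drugs in ZR-75-1. SCAP (ENSG00000114650.20, chr3:47413681-47477126) stood at 64.8, 69.0 and 63.9 CPM with DMSO, 87.1, 93.0 and 99.0 CPM with abemaciclib and 86.0, 101 and 87.3 CPM with palbociclib in CAMA-1. In ZR-75-1 it stood at 55.2, 50.3 and 69.4, at 124, 110.0 and 94.5 and at 109.8, 102 and 111 CPM. The drug libraries lay above DMSO in both lines. The log2 fold changes in CAMA-1 were 0.50 (SE 0.10, adjusted p = 0.000142) with abemaciclib and 0.48 (SE 0.10, adjusted p = 0.000251) with palbociclib. For ZR-75-1 they were 0.92 (adjusted p = 1.54e-09) and 0.89 (adjusted p = 4.72e-09).

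SREBF2 (ENSG00000198911.12, chr22:41833105-41907306) held 43.5, 42.4 and 40.4 CPM with DMSO, 50.7, 43.6 and 39.7 CPM with abemaciclib and 58.4, 53.9 and 62.7 CPM with palbociclib in CAMA-1. The palbociclib libraries lay above the others (0.47, SE 0.13, adjusted p = 0.00253), and abemaciclib overlapped DMSO (0.10, adjusted p = 0.59). In ZR-75-1 it held 46.5, 53.3 and 57.9 CPM with DMSO, 37.9, 43.0 and 42.0 CPM with abemaciclib and 42.0, 37.7 and 27.7 CPM with palbociclib, so that both drug groups lay below DMSO. The fall with palbociclib (-0.55, SE 0.14, adjusted p = 0.00197) was kept in every alternative run. That with abemaciclib (-0.36, adjusted p = 0.041) was lost without DMSO replicate 2 or 3 or abemaciclib replicate 1, 2 or 3 (-0.29, adjusted p = 0.172, without DMSO replicate 3), and without the filter on low counts and under DESeq2.

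INSIG1 (ENSG00000186480.13, chr7:155297776-155310235), itself a target of SREBP2, rose with palbociclib in CAMA-1. Its libraries held 43.9, 46.2 and 32.8 CPM with DMSO, 41.4, 37.5 and 34.6 CPM with abemaciclib and 53.0, 59.1 and 61.7 CPM with palbociclib. The palbociclib libraries lay above all others (0.51, SE 0.13, adjusted p = 0.00202), and abemaciclib gave -0.09 (adjusted p = 0.647). In ZR-75-1 the libraries held 66.4, 60.8 and 53.2 CPM with DMSO, 63.1, 66.0 and 79.8 CPM with abemaciclib and 59.0, 65.8 and 54.9 CPM with palbociclib, which overlapped.

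INSIG2 (ENSG00000125629.15, chr2:118088452-118110997), which does not depend on SREBP2 in the same way, held 21.9, 18.9 and 13.8 CPM with DMSO, 28.6, 30.4 and 19.7 CPM with abemaciclib and 18.6, 18.0 and 23.9 CPM with palbociclib in CAMA-1. The groups overlapped, and the rise with abemaciclib (0.54, adjusted p = 0.0295) was lost without DMSO replicate 3 or abemaciclib replicate 1 or 2 (0.35, adjusted p = 0.206, without DMSO replicate 3), and under DESeq2. In ZR-75-1 it held 5.78, 3.91 and 6.77, then 8.41, 5.42 and 8.87, then 4.66, 9.26 and 5.49 CPM, with no call.

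Of the genes of uptake and export, ABCG1 fell in CAMA-1 with both drugs and ABCA1 with palbociclib. ABCG1 (ENSG00000160179.19, chr21:42199689-42297244), which moves sterols to lipoproteins, stood at 32.6, 35.01 and 33.7 CPM with DMSO, 18.7, 31.3 and 23.5 CPM with abemaciclib and 21.3, 20.3 and 20.1 CPM with palbociclib. Both drug groups lay below DMSO, with -0.50 (SE 0.17, adjusted p = 0.0173) and -0.71 (SE 0.17, adjusted p = 0.000786), and the first was lost without abemaciclib replicate 1 or 3 (-0.32, adjusted p = 0.179, without abemaciclib replicate 1), and under DESeq2. In ZR-75-1 it held 11.2, 10.8 and 11.2 CPM with DMSO, 8.09, 5.75 and 6.56 CPM with abemaciclib and 9.05, 7.603 and 9.24 CPM with palbociclib. The drug libraries also lay below DMSO there, at -0.70 (adjusted p = 0.0611) and -0.35 (adjusted p = 0.381), neither called.

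ABCA1 (ENSG00000165029.16, chr9:104781006-104928155), the exporter that loads cholesterol onto apolipoprotein, held 13.6, 11.2 and 13.1 CPM with DMSO, 6.94, 12.3 and 7.30 CPM with abemaciclib and 5.62, 6.08 and 10.4 CPM with palbociclib in CAMA-1. Its fall with palbociclib (-0.81, 95% interval -1.39 to -0.23, adjusted p = 0.0233) was lost without DMSO replicate 1 or 3 or palbociclib replicate 1 or 2 (-0.64, adjusted p = 0.131, without palbociclib replicate 1), and under DESeq2 and in a single fit over all 18 libraries. Abemaciclib gave -0.56 (adjusted p = 0.119). ZR-75-1 had from 0 to 4 counts of ABCA1 in a library, too few for a test.

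MYLIP (ENSG00000007944.15, chr6:16129086-16148248), a ubiquitin ligase that is induced by oxysterols and directs lipoprotein receptors to degradation, rose in CAMA-1. It stood at 36.6, 31.5 and 46.1 CPM with DMSO, 65.2, 55.1 and 58.7 CPM with abemaciclib and 56.2, 61.1 and 59.6 CPM with palbociclib. The drug libraries lay above DMSO, with 0.64 (SE 0.13, adjusted p = 0.000124) and 0.61 (SE 0.13, adjusted p = 0.000214). Its ZR-75-1 libraries held 13.5, 14.7 and 15.2, then 12.9, 11.2 and 17.0, then 18.9, 17.9 and 15.3 CPM, with no call. In CAMA-1 MYLIP thus rose while ABCG1, which like it is a liver X receptor target, fell.

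STARD4, a carrier that moves cholesterol between membranes, had 0, 1 and 0 counts in the CAMA-1 DMSO libraries and at most 4 in any other CAMA-1 library. In ZR-75-1 it held 6.74, 5.42 and 4.06 CPM with DMSO and was not called with either drug (-0.26, 95% interval -1.11 to 0.59, and 0.23, SE 0.39). NPC1L1, the sterol importer of the intestine, had 4 counts in CAMA-1 abemaciclib replicate 1 and 0 in the other 17 libraries.

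The inhibitors were next compared directly, at the same dose and time. In CAMA-1 the levels with abemaciclib were lower than with palbociclib for 7 of the 25 members tested (28%) and higher for 0 (0.00%), against 1.53% and 0.796% of all genes tested. DESeq2 called 6 members, all lower, and of the 9926 genes it tested it called 59 higher and 128 lower. The median difference over the members was -0.32 on the log2 scale, against 0.00 for all genes. The 7 were ACAT2, FDPS, FDFT1, TM7SF2, MSMO1, EBP and INSIG1.

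ACAT2 (-0.68, SE 0.14, adjusted p = 0.0032) and EBP (-0.45, SE 0.09, adjusted p = 0.0032) fell with both drugs and lay lower with abemaciclib. INSIG1 (-0.60, SE 0.14, adjusted p = 0.00648) and MSMO1 (-0.50, SE 0.12, adjusted p = 0.01) were genes whose CAMA-1 level was highest with palbociclib. TM7SF2 (-0.59, adjusted p = 0.0232) was of the same kind, whereas FDFT1 (-0.51, adjusted p = 0.0113) and FDPS (-0.32, adjusted p = 0.0239) had been called against DMSO with abemaciclib and not with palbociclib. Many of these calls were lost in fits with 1 library fewer, and without abemaciclib replicate 3 only 2 members were called, ACAT2 and EBP. The calls over all genes fell as well in that fit, to 50 higher and 104 lower from 88 and 169. EBP was called in all 6 fits that left out 1 library. FDPS was lost without abemaciclib replicate 1, 2 or 3 or palbociclib replicate 1, 2 or 3 (-0.29, adjusted p = 0.13, without palbociclib replicate 2). TM7SF2 was lost without abemaciclib replicate 2 or 3 or palbociclib replicate 1, 2 or 3 (-0.46, adjusted p = 0.193, without abemaciclib replicate 2), and under DESeq2. MSMO1 was lost without abemaciclib replicate 1 or 3 or palbociclib replicate 1 or 3 (-0.42, adjusted p = 0.148, without palbociclib replicate 1). FDFT1 was lost without abemaciclib replicate 3 or palbociclib replicate 3 (-0.45, adjusted p = 0.0977, without abemaciclib replicate 3), ACAT2 was lost without palbociclib replicate 2 (-0.57, adjusted p = 0.0529) and INSIG1 was lost without abemaciclib replicate 3 (-0.54, adjusted p = 0.0744).

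SQLE missed the threshold (-0.32, 95% interval -0.51 to -0.13, adjusted p = 0.0568) although its abemaciclib libraries all lay below the palbociclib libraries. HMGCS1 (-0.29, 95% interval -0.50 to -0.07, adjusted p = 0.179) and SREBF2 (-0.37, 95% interval -0.63 to -0.12, adjusted p = 0.127) were not called either. These intervals are not adjusted for the number of genes. Genes that rose with both drugs and whose interval spanned 0 included SCAP (0.02, 95% interval -0.18 to 0.23), SC5D (-0.03, -0.39 to 0.33) and MYLIP (0.03, -0.23 to 0.28).

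In ZR-75-1 the direct comparison called 2 members higher with abemaciclib (8.00%) and 4 lower (16.0%), against 5.23% and 7.94% of all genes tested. The lower ones were 3 mevalonate enzymes and EBP. ACAT2 (-0.55, adjusted p = 0.00242) and FDPS (-0.39, adjusted p = 0.000628) were kept in all alternatives run. PMVK (-0.43, adjusted p = 0.0176) was lost without abemaciclib replicate 1 or 3 or palbociclib replicate 3 (-0.35, adjusted p = 0.116, without palbociclib replicate 3), and under DESeq2. EBP (-0.28, adjusted p = 0.0336) was lost without abemaciclib replicate 1 or 2 or palbociclib replicate 2 or 3 (-0.22, adjusted p = 0.187, without palbociclib replicate 2), and with upper-quartile scaling, without the filter on low counts and under DESeq2. The higher ones were the sterol enzymes DHCR7 and MSMO1. DHCR7 (0.36, adjusted p = 0.0106) was lost without abemaciclib replicate 2 or palbociclib replicate 2 (0.28, adjusted p = 0.0996, without palbociclib replicate 2), and MSMO1 (0.33, adjusted p = 0.036) was lost without abemaciclib replicate 2 or 3 or palbociclib replicate 3 (0.26, adjusted p = 0.181, without palbociclib replicate 3), and under DESeq2 and in a single fit over all 18 libraries. DESeq2 called 3 members in all, and so did the fits without abemaciclib replicate 2 or palbociclib replicate 3.

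**Figure D3:**
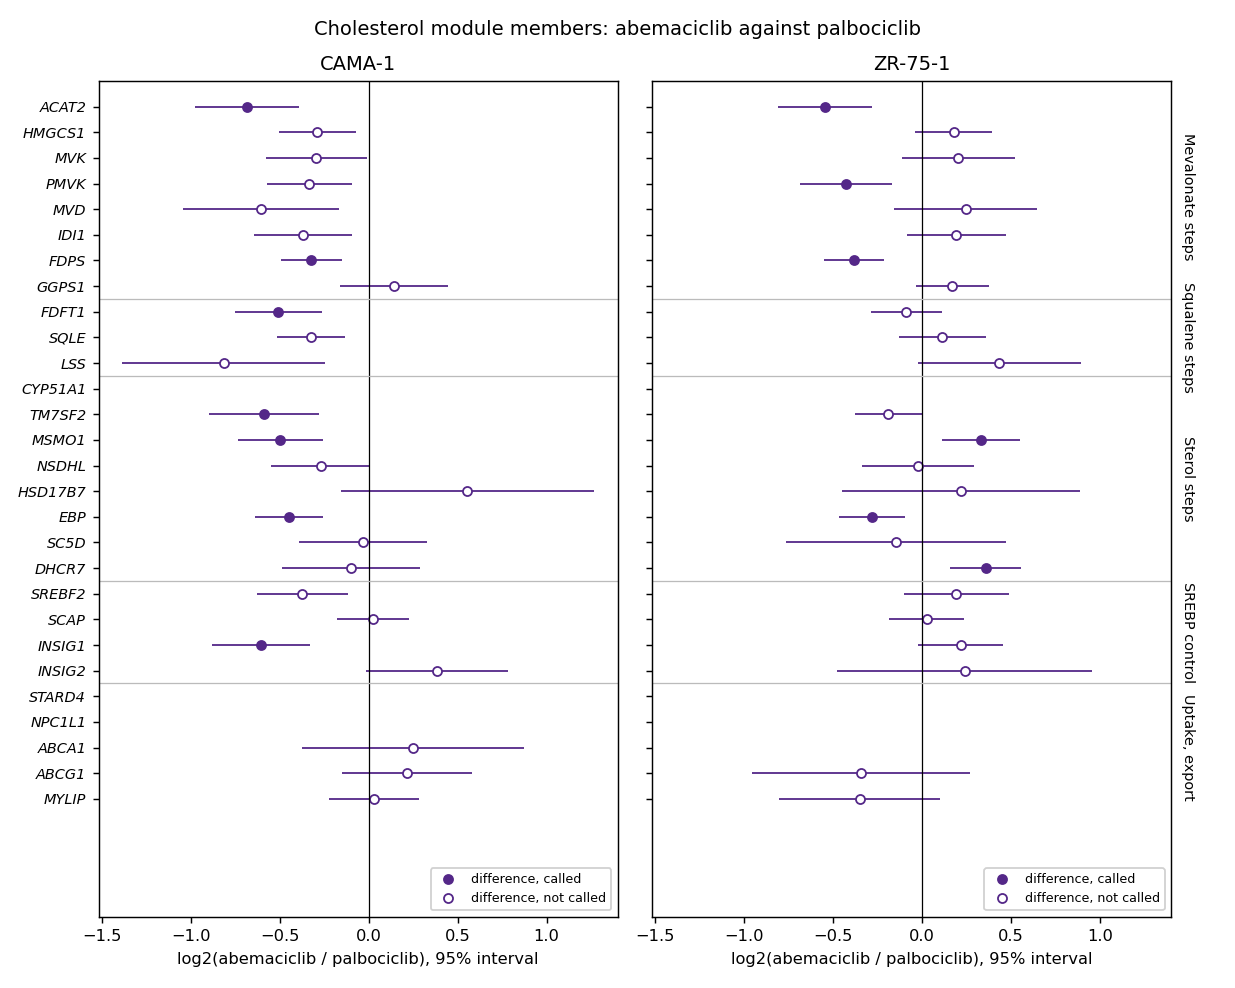
Log2 ratio of abemaciclib to palbociclib for each member, with its 95% interval, in CAMA-1 (left) and ZR-75-1 (right), with filled points for called differences. In CAMA-1 the 7 called points all lie left of 0, and in ZR-75-1 4 lie left and 2 right. CYP51A1, NPC1L1, STARD4 and, in ZR-75-1, ABCA1 have no point.

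The responses were then compared between the lines by an interaction term over all 18 libraries, the response of ZR-75-1 minus that of CAMA-1 on the log2 scale. For palbociclib 10 of the 26 members tested (38.5%) responded lower in ZR-75-1 and 1 (3.85%) higher, against 10.3% and 10.0% of all genes tested. The median difference was -0.55, against -0.02 for all genes. For abemaciclib 5 members (19.2%) responded lower and 1 (3.85%) higher, against 10.0% and 8.19%, with a median of -0.17 against -0.03. Both comparisons share their DMSO libraries, and ABCA1 and STARD4 passed the filter on low counts through 1 line only.

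HMGCS1 had the smallest adjusted p of the members with palbociclib, whereas EBP had it with abemaciclib. The HMGCS1 response was lower in ZR-75-1 by 0.70 with abemaciclib (SE 0.15, adjusted p = 0.000457) and by 1.16 with palbociclib (SE 0.15, adjusted p = 8.23e-09), rising in one line and falling in the other. SREBF2 crossed the same way with palbociclib (-1.05, SE 0.19, adjusted p = 2.12e-05), whereas the difference with abemaciclib was not called (-0.48, adjusted p = 0.0778). SC5D differed with both drugs (-1.43, adjusted p = 0.0027, and -1.31, adjusted p = 0.00438), having risen in CAMA-1 alone. MSMO1 (-1.15, adjusted p = 3.96e-07), SQLE (-0.97, adjusted p = 4.33e-06) and FDFT1 (-0.54, adjusted p = 0.00422) differed with palbociclib, and these calls were kept in every fit that left out 1 library. EBP was the only member called in the other direction in these comparisons, its fall having been smaller in ZR-75-1 (0.65, adjusted p = 0.000136, and 0.48, adjusted p = 0.00329).

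The other differences did not hold in every fit that left out 1 library. With palbociclib, MVD (-0.98, adjusted p = 0.0151) was lost without CAMA-1 DMSO replicate 3 (-0.77, adjusted p = 0.0805). MVK (-0.62, adjusted p = 0.0246) was lost without CAMA-1 DMSO replicate 2, CAMA-1 palbociclib replicate 1 or 3 or ZR-75-1 DMSO replicate 2 (-0.46, adjusted p = 0.128, without CAMA-1 DMSO replicate 2). TM7SF2 (-0.58, adjusted p = 0.0183) was lost without CAMA-1 DMSO replicate 1, CAMA-1 palbociclib replicate 1 or 2 or ZR-75-1 palbociclib replicate 3 (-0.38, adjusted p = 0.165, without CAMA-1 DMSO replicate 1). INSIG1 (-0.55, adjusted p = 0.022) was lost without CAMA-1 DMSO replicate 3, CAMA-1 palbociclib replicate 2 or 3, ZR-75-1 DMSO replicate 1 or 2 or ZR-75-1 palbociclib replicate 3 (-0.37, adjusted p = 0.169, without CAMA-1 DMSO replicate 3). Of these genes MVD, TM7SF2 and INSIG1 had risen in CAMA-1 with palbociclib. With abemaciclib, SQLE (-0.53, adjusted p = 0.0162) was lost without CAMA-1 DMSO replicate 1 or 2, CAMA-1 abemaciclib replicate 3, ZR-75-1 DMSO replicate 2 or 3 or ZR-75-1 abemaciclib replicate 2 (-0.41, adjusted p = 0.0968, without ZR-75-1 abemaciclib replicate 2). HSD17B7 (-1.61, adjusted p = 0.0205) was lost without CAMA-1 DMSO replicate 2 or 3, CAMA-1 abemaciclib replicate 3 or ZR-75-1 DMSO replicate 1 (-1.22, adjusted p = 0.116, without CAMA-1 DMSO replicate 3). MYLIP (-0.76, adjusted p = 0.0265) was lost without CAMA-1 DMSO replicate 1 or 2, CAMA-1 abemaciclib replicate 1 or 3, ZR-75-1 DMSO replicate 2 or 3 or ZR-75-1 abemaciclib replicate 1 or 2 (-0.58, adjusted p = 0.113, without CAMA-1 DMSO replicate 2), and without the filter on low counts.

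SCAP and ACAT2, called in one direction in all 4 comparisons with DMSO, were not called here. SCAP had differences of 0.39 (95% interval 0.08 to 0.71, adjusted p = 0.074) with abemaciclib and 0.39 (0.08 to 0.70, adjusted p = 0.0685) with palbociclib. ACAT2 had 0.49 (0.11 to 0.87, adjusted p = 0.0596) and 0.35 (0.01 to 0.69, adjusted p = 0.145).

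The contrast between the drugs itself also differed between the lines for 3 members (11.5%), all higher in ZR-75-1, against 1.03% of all genes tested called higher, and for 0 members (0.00%) called lower, against 1.77%. They were MSMO1 (0.83, SE 0.17, adjusted p = 0.000669), INSIG1 (0.82, SE 0.18, adjusted p = 0.00296) and LSS (1.25, SE 0.37, adjusted p = 0.0436). For MSMO1, abemaciclib lay below palbociclib in CAMA-1 and above it in ZR-75-1. The LSS call was lost without CAMA-1 abemaciclib replicate 1, CAMA-1 palbociclib replicate 2 or 3, ZR-75-1 abemaciclib replicate 1 or 2 or ZR-75-1 palbociclib replicate 2 (0.99, adjusted p = 0.208, without CAMA-1 abemaciclib replicate 1), and the other two were kept in all alternatives run.

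**Figure D4:**
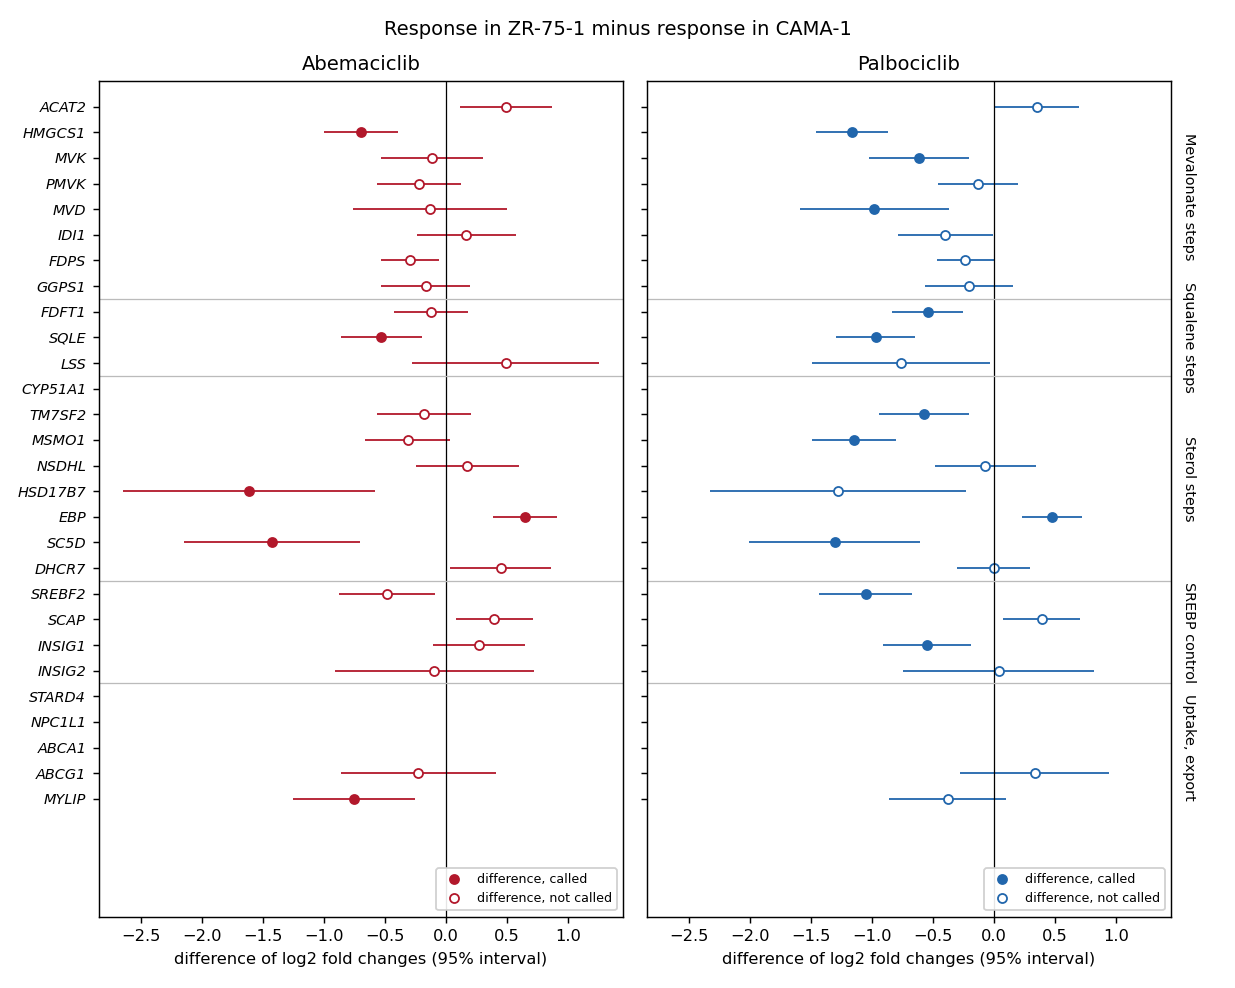
Difference between the lines in the log2 fold change against DMSO (ZR-75-1 minus CAMA-1) for each member, with its 95% interval, for abemaciclib (left) and palbociclib (right), with filled points for called differences. Most called points lie left of 0, and EBP lies right of 0 in both panels. CYP51A1, NPC1L1, STARD4 and ABCA1 are not drawn.

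The lines also differed before treatment. With DMSO, 14 of the 26 members tested (53.8%) were higher in ZR-75-1 and 4 (15.4%) lower, against 31.5% and 29.8% of all genes tested. These counts include STARD4 among the higher and ABCA1 among the lower members. Each passed the filter on low counts through the line where it is high, so their calls follow from the filter and are no support. Apart from them, the higher members were 11 enzymes, SREBF2 and INSIG1, and the lower ones ABCG1, MYLIP and INSIG2. All 11 enzymes called were higher in ZR-75-1, out of 18 tested. On the scale shared by both lines, DHCR7 stood at 70.6 ± 6.01 CPM in ZR-75-1 and 16.0 ± 1.94 CPM in CAMA-1, a 4.46-fold difference (log2 difference 2.16, SE 0.14, adjusted p = 1.06e-20). TM7SF2 stood at 86.7 ± 6.17 and 20.9 ± 4.55 CPM (log2 difference 2.04, SE 0.14, adjusted p = 2.22e-20). GGPS1 (log2 difference 1.28, adjusted p = 1.92e-13), FDFT1 (1.23, adjusted p = 2.22e-16) and HMGCS1 (1.04, adjusted p = 5.92e-13) were more than 1 log2 unit higher in ZR-75-1, as was HSD17B7 (1.40, adjusted p = 0.00157). MSMO1 (0.82), LSS (0.78), MVD (0.56), IDI1 (0.40) and FDPS (0.23) were higher by less, with SREBF2 (0.41) and INSIG1 (0.66) among the control genes. The call of MVD was lost without CAMA-1 DMSO replicate 1 or 3 or ZR-75-1 DMSO replicate 1 or 3 (0.34, adjusted p = 0.232, without CAMA-1 DMSO replicate 3). That of IDI1 was lost without CAMA-1 DMSO replicate 3 or ZR-75-1 DMSO replicate 2 or 3 (0.27, adjusted p = 0.135, without ZR-75-1 DMSO replicate 3). That of FDPS was lost without CAMA-1 DMSO replicate 1 or 2 or ZR-75-1 DMSO replicate 2 or 3 (0.11, adjusted p = 0.316, without CAMA-1 DMSO replicate 1). That of SREBF2 was lost without CAMA-1 DMSO replicate 3 or ZR-75-1 DMSO replicate 3 (0.33, adjusted p = 0.0542, without ZR-75-1 DMSO replicate 3). A fit with a replicate block also lost these calls. It compares the lines at the level of their replicate 1, another quantity, so it is no check of them. LSS was lost without CAMA-1 DMSO replicate 2 or ZR-75-1 DMSO replicate 2 or 3 (0.51, adjusted p = 0.119, without CAMA-1 DMSO replicate 2).

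ABCG1 (-1.52, adjusted p = 2.1e-09), MYLIP (-1.33, adjusted p = 9.32e-10) and INSIG2 (-1.63, adjusted p = 1e-06) were called lower in ZR-75-1. ABCA1 and STARD4 are described by their levels alone, without a test. ABCA1 stood at 0.633 ± 0.514 CPM in ZR-75-1 and at 12.2 ± 1.26 CPM in CAMA-1. It had 1 to 4 counts in a ZR-75-1 library and 32 to 55 in a CAMA-1 library. STARD4 was at least 6.24-fold higher in ZR-75-1, taking a floor of 3 counts in each CAMA-1 library. ACAT2, MVK, PMVK, SQLE, NSDHL, EBP, SC5D and SCAP were not called, with log2 differences from -0.24 to 0.12. Since 1 line stands for each side, the line cannot be told apart from any other feature of its cultures.

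Genes next to the pathway were examined as separate lists, whose counts are to be read against all genes. The background in CAMA-1 was 20.3% higher and 20.1% lower for abemaciclib, then 18.4% higher and 18.7% lower for palbociclib. That of ZR-75-1 was 17.9% higher and 18.3% lower for abemaciclib, then 14.5% higher and 13.4% lower for palbociclib. Of 15 genes of the isoprenoid branch, abemaciclib and palbociclib raised 1 and 1 in CAMA-1 and lowered 1 and 2, and raised 4 and 3 in ZR-75-1 and lowered 3 and 1. COQ2, which attaches the side chain of ubiquinone, fell in all 4 comparisons, with log2 fold changes of -0.73 and -0.57 (CAMA-1) and -1.13 and -0.61 (ZR-75-1). PGGT1B, a subunit of the enzyme that attaches geranylgeranyl groups to proteins, rose with both drugs in CAMA-1 (0.93 and 0.82). In ZR-75-1 it rose with abemaciclib (0.48) and was not called with palbociclib (0.24). DOLK, the dolichol kinase, rose in ZR-75-1 (0.92 and 0.89).

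Beside the same shares of all genes, of 9 genes of SREBP processing, 3 and 2 rose and 1 and 1 fell in CAMA-1 (abemaciclib, then palbociclib), and 3 rose and 0 fell with each drug in ZR-75-1. SREBF1, which encodes the SREBP of fatty acid synthesis, rose with abemaciclib in both lines (0.53, adjusted p = 0.00117, and 1.34, adjusted p = 5.09e-17). With palbociclib SREBF1 rose in ZR-75-1 (0.52) and was not called in CAMA-1 (0.11).

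Of 14 transport and esterification genes tested, again beside 13.4% to 20.3% of all genes called in each direction, 3 and 3 rose and 2 and 3 fell in CAMA-1, and 5 and 3 rose and 1 and 0 fell in ZR-75-1. NPC2, the lysosomal cholesterol carrier, rose in ZR-75-1 by 1.38 with abemaciclib and 0.70 with palbociclib, and its values in CAMA-1 were 0.09 and 0.10, not called. LRPAP1, a chaperone of lipoprotein receptors, also rose in ZR-75-1 (0.94 and 0.54), and TMEM97, the sigma-2 receptor, fell in CAMA-1 (-0.69 and -0.62). Of the oxysterol receptor genes and targets outside the 28, 2 and 1 of 7 rose and 0 and 2 fell in CAMA-1, and 0 of 6 were called in ZR-75-1. ABCA2, a lysosomal transporter, rose in CAMA-1 (0.72 and 0.70), LPCAT3 rose with abemaciclib there (0.58) and RXRA, the partner of the liver X receptors, fell with palbociclib (-0.32).

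Fatty acid synthesis, which SREBF1 governs, is read against the same 13.4% to 20.3% of all genes. It had 4 and 6 of 15 genes higher and 2 and 1 lower in CAMA-1, and 5 and 3 of 14 higher and 2 and 2 lower in ZR-75-1. FASN, the fatty acid synthase, rose in all 4 comparisons, by 0.46 and 0.95 (CAMA-1) and by 0.67 and 0.27 (ZR-75-1). FADS1, the Δ5 desaturase, fell in all 4, with -2.02 and -0.77 (CAMA-1), then -1.72 and -0.77 (ZR-75-1). SCD, the Δ9 desaturase, rose with palbociclib in CAMA-1 (0.36), and in ZR-75-1 it rose with abemaciclib (0.70).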

How the data were processed

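Per the labels and the study's methods, RNA from 3 replicate cultures of each of 6 groups was made into Lexogen QuantSeq 3′ libraries. The authors trimmed the reads with BBDuk, aligned them to hg38 with STAR 2.7.5b and counted them per gene with featureCounts 2.0.1, and deposited raw counts for 60656 genes. The counting strand is not given in the sources used here, and one kit name in the labels differs from that in the methods. Counts near a transcript's 3′ end make levels independent of transcript length but sensitive to which end is used. The p-values measure the spread between these libraries.

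Counts were tested with edgeR 4.0.16 in R 4.3.3 (quasi-likelihood test, TMM scaling, filterByExpr, Benjamini-Hochberg adjustment over all genes tested), for each line alone (9 libraries) and for comparisons between lines over all 18. The filter left 11053 genes in CAMA-1, 11017 in ZR-75-1 and 11987 over all. CPM used TMM within a line, except in the summed markers and in the comparison of the lines with DMSO, where TMM was over all 18 libraries. The edgeR test was checked on simulated counts, for the comparison of abemaciclib with DMSO in CAMA-1 only. Pearson's r between replicates of a group was 0.974 to 0.982 on log2 CPM of the genes tested. At 2308442 to 4146549 counts a library, genes of a few CPM rest on few reads, and precision there is limited by counting.

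The members and the other lists were chosen with earlier results of these data known. All members are named. Values per library are given for up to 3 members of each role with the largest absolute log2 fold change against DMSO, for those called in opposite directions, and for those called in a difference between lines. Of each other list, up to 3 genes with the smallest p in any comparison with DMSO are named, and TK1 and E2F1 are named in addition. Some genes of one list that this rule selects are not reported here. The whole pathway is not covered, and genes outside the lists were not analysed here. The TCP1 overlap was examined after its values were seen. Coordinates come from GENCODE release 44 (hg38), which may differ from the release the authors counted with, and upstream sequences from RefSeq. DESeq2 1.42.0, other scalings, other filters, a replicate block, a fit over all libraries and each library left out in turn were tried as alternatives.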

Additional observations from a re-analysis of the deposited data

Results flagged for a closer look

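These results were singled out because the response, or the contrast of the drugs, differed between the lines by the interaction test of edgeR (adjusted p under 0.05). Values are ZR-75-1 minus CAMA-1 on the log2 scale. No explanation was tested.

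In the response to abemaciclib, HMGCS1 (-0.70), SQLE (-0.53), HSD17B7 (-1.61), SC5D (-1.43) and MYLIP (-0.76) were lower in ZR-75-1 and EBP (0.65) was higher. HMGCS1 rose in CAMA-1 and fell in ZR-75-1, SQLE, HSD17B7, SC5D and MYLIP rose in CAMA-1 and were not called in ZR-75-1, and EBP fell in both.

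In the response to palbociclib, the mevalonate enzymes HMGCS1 (-1.16), MVK (-0.62) and MVD (-0.98) were lower in ZR-75-1. So were the squalene enzymes FDFT1 (-0.54) and SQLE (-0.97), the sterol enzymes TM7SF2 (-0.58), MSMO1 (-1.15) and SC5D (-1.31), and the control genes SREBF2 (-1.05) and INSIG1 (-0.55). EBP (0.48) was higher. HMGCS1 and SREBF2 were called in opposite directions in the lines.

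The contrast of abemaciclib to palbociclib was higher in ZR-75-1 for LSS (1.25), MSMO1 (0.83) and INSIG1 (0.82).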

How the results depend on the processing

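Of 144 recomputed counts of called members, 137 stayed within 1.5 times the count reported. The exceptions were all in the direct comparison of the drugs. In ZR-75-1, 6 members were called in the report and 3 under DESeq2, which called 346 genes higher and 552 lower of all genes, against 576 and 875 with edgeR. The cause was not tested. Leaving out 1 library gave 2 to 5 members in place of 7 in CAMA-1 and 3 to 6 in place of 6 in ZR-75-1. Without CAMA-1 palbociclib replicate 1, 2 or 3 the counts were 4, 4 and 3, and without abemaciclib replicate 3 the count was 2. These fits have fewer libraries. Over all genes, the fit without CAMA-1 abemaciclib replicate 3 called 50 higher and 104 lower, against 88 and 169 with all libraries. For the comparisons with DMSO the ranges without 1 library were 11 to 15 (reported 15) and 14 to 16 (17) for abemaciclib and palbociclib in CAMA-1, and 9 to 11 (11) and 9 to 9 (9) in ZR-75-1. The differences between lines gave 4 to 8 (6), 9 to 12 (11) and 2 to 4 (3), and the lines with DMSO 14 to 17 (18). STARD4 and ABCA1 are within the counts for the lines with DMSO. Of 3666 values of single genes, 3480 kept their call or lack of one, 149 lost the call, 37 gained one and 0 reversed. Direction was compared only where the gene was called in the reported fit or in the alternative. No pairing of the libraries by equal replicate number was seen: of 18 pairs with the same number none had deviations correlating above 0.1 (-0.112 to 0.0845). With 3 libraries in a group and counting noise in each, this cannot exclude that replicates were handled together. With a replicate block the counts were 15, 17, 11 and 9 against DMSO, 8 and 6 between drugs, 6, 11 and 3 for the differences between lines, and 14 for the lines with DMSO. In that fit the lines with DMSO are compared at the level of their replicate 1. The 14 is therefore no check of the reported 18, though the totals above include it. Genes of a few CPM, such as LSS, HSD17B7, ABCA1 and STARD4, are limited by depth.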
